A study of Mus musculus with 17 samples.

Results

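Astrocytes are the cells of 2 of the 17 polyA RNA sequencing libraries of mouse cerebral cortex in the series, chosen because the labels of both name that cell type. They were set against the 12 libraries of the 6 other purified types. These are neurons, oligodendrocyte precursor cells (OPC), newly formed oligodendrocytes (NFO), myelinating oligodendrocytes (MO), microglia and endothelial cells, with 2 libraries of each. The 3 whole-cortex libraries entered the fit but not the comparison. All libraries carry the strain label FVN/Swiss and the tissue label cerebral cortex, and the labels name no treatment and no genotype that differs between groups. The labels used here give neither ages, nor sorting markers, nor animals, so p-values rest on how far libraries of a type differ, and that spread may be technical. In purified bulk RNA a lower share of cells that express a gene and less of its RNA per cell cannot be told apart.

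Astrocytes are the glial cells that touch synapses with fine processes and blood vessels with endfeet. They take glutamate and GABA out of the extracellular space, buffer potassium, move water, make lipoproteins and cholesterol for other cells, store glycogen and secrete proteins that build matrix and synapses. They are joined to each other by gap junctions. They arise from radial glia under the control of transcription factors of the Sox, Nfi, Id and Notch-driven Hes families, and several of those stay on in the mature cell.

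The astrocyte label was checked against the marker list, which was Aqp4, Aldh1l1, Slc1a3, Gfap, Slc1a2, Gja1, Gjb6, Aldoc, Sox9 and Fgfr3. All 10 were higher in both astrocyte libraries than in all 12 others. The summed level of the list was 4382 and 3429 FPKM in astrocytes, against 61.8 to 863.7 FPKM in the other purified libraries. In the other libraries the median of the 10 markers was 0.438% to 9.63% of the astrocyte mean, with both OPC libraries at the top (9.63% and 5.42%). In the astrocyte libraries the markers of other cells were low as a median percentage of the level in their own type. Neuron markers stood at 0.661% and 1.61%, endothelial markers at 0.681% and 0.635%, and NFO markers at 0.27% in both. OPC markers stood at 0.0858% and 0.159%, microglia markers at 0.0722% and 0.0527%, and MO markers at 0.00584% and 0.00501%. The endothelial percentages were the highest among purified libraries that are not endothelial, with a microglia library next at 0.454%. Of the 4 endothelial markers 0 were called lower in astrocytes. Of the 3 NFO markers 2 were at the floor and 2 were called lower. The NFO markers summed to 35.35 and 38.66 FPKM in astrocytes, against 646.7 and 682.7 FPKM in NFO. The MO markers Mog and Mobp were listed at the floor of 0.1 FPKM in both astrocyte libraries. The astrocyte replicates correlated at r = 0.9875 over genes on the log2 scale, which describes these libraries and is no test.

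Levels are the FPKM the authors deposited, that is fragments scaled to transcript length and to the mapped reads of the library, with every lower value listed at 0.1. Differences are between the astrocyte mean and the mean of the 6 other type means on the log2(FPKM + 1) scale, which understates the change of genes near the floor. Of 22462 genes in the files, 14011 reached 1 FPKM in at least 2 libraries and were tested with limma. A gene counted as higher or lower when its Benjamini-Hochberg adjusted p was under 0.05 and its log2 difference at least 1. It counted as higher or lower than in each type when it also passed a test against every other type alone and lay at least 1 on the log2 scale from the nearest. The gene lists described below and their members were chosen with earlier results of these data known, so their counts describe the members and test nothing. Within the lists up to 4 genes each were chosen by a rule on the size of the difference. The other genes named were picked with their values in view. Counts within a list cover the members tested, which were 13 of 16 for hedgehog signalling, 40 of 41 for receptors, 28 of 30 for injury genes, 31 of 34 for splicing, 22 of 24 for serine metabolism, 29 of 30 for amino acid breakdown and 2 of 3 for red blood cell markers. Every other list was tested whole.

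By those rules 2447 genes were higher in astrocytes (17.5% of those tested) and 1908 were lower (13.6%). In 513 genes (3.66%) the astrocyte level was higher than in each other type, and in 109 (0.778%) it was lower than in each. The median difference was 1.56 among the genes that were higher and -1.46 among those that were lower, beside 0.02 over all genes tested. The split depended on scaling: with libraries scaled to a common sum of FPKM, where the median of all genes moves to 0.30, 3486 genes were higher and 1380 lower. With 0.1 in place of 1 added to the FPKM before the log, 3607 genes were higher and 2689 lower. Centring each library within classes of transcript length, an alternative added after the data were seen, gave 1848 higher and 2160 lower.

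**Figure D1:**
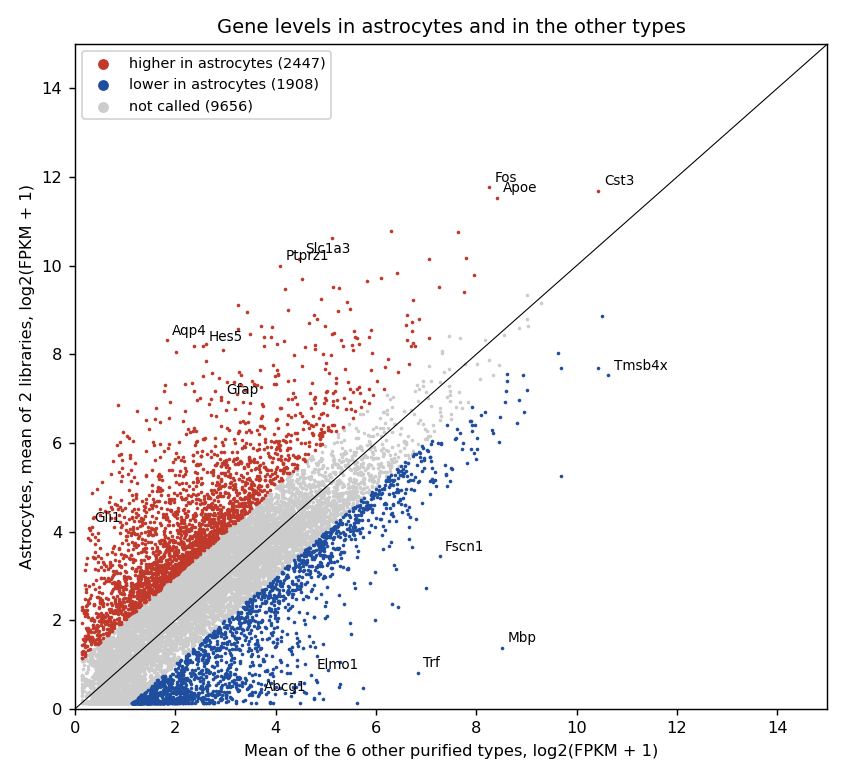
Mean level of each of 14011 genes in the 2 astrocyte libraries (y axis) against the mean of the 6 other purified types (x axis), both as log2(FPKM + 1), with equal levels on the line. The 2447 genes called higher (red) reach from the floor of the other types, as with Gli1, to the most abundant RNAs of the plot, as with Fos and Apoe, and the 1908 called lower (blue) include Mbp, Trf and Tmsb4x.

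Both astrocyte libraries lay above all 12 others for 1380 of the 2447 genes that were higher (56.4%), against 12.01% of all genes tested. For 718 of them another type had the higher mean, most often neurons (187), endothelial cells (182) or OPC (178). OPC were the highest of the other types for 38.2% of the genes that were higher, against 23.2% of all genes tested, and OPC were also the nearest type for 254 of the 513 genes higher than in each. The OPC libraries carry the astrocyte marker levels given above, and the part of those in this count was not tested.

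The 10 genes with the largest difference whose libraries did not overlap were Aqp4, Slc4a4, Tnc, Ptprz1, Slc6a11, Fgfr3, Slc1a3, Hes5, Slc7a10 and Gja1. Aqp4, the water channel of astrocyte endfeet, stood at 334 and 304 FPKM in astrocytes, against 0.522 to 17.3 FPKM (median 1.21) in the 12 other purified libraries. Its log2 difference was 6.49 (SE 0.35, adjusted p = 1.48e-09, limma), and the neuron libraries were the nearest. Aldh1l1, the folate enzyme widely used to mark astrocytes, stood at 141 and 147 FPKM in astrocytes, against 0.388 to 11.1 FPKM in the others, a log2 difference of 5.41 (SE 0.26, adjusted p = 5.17e-10, limma). That both astrocyte libraries lay above all 12 others was a condition for choosing the 10 genes. Of these 10, all but Ptprz1 were also higher than in each type.

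**Figure D2:**
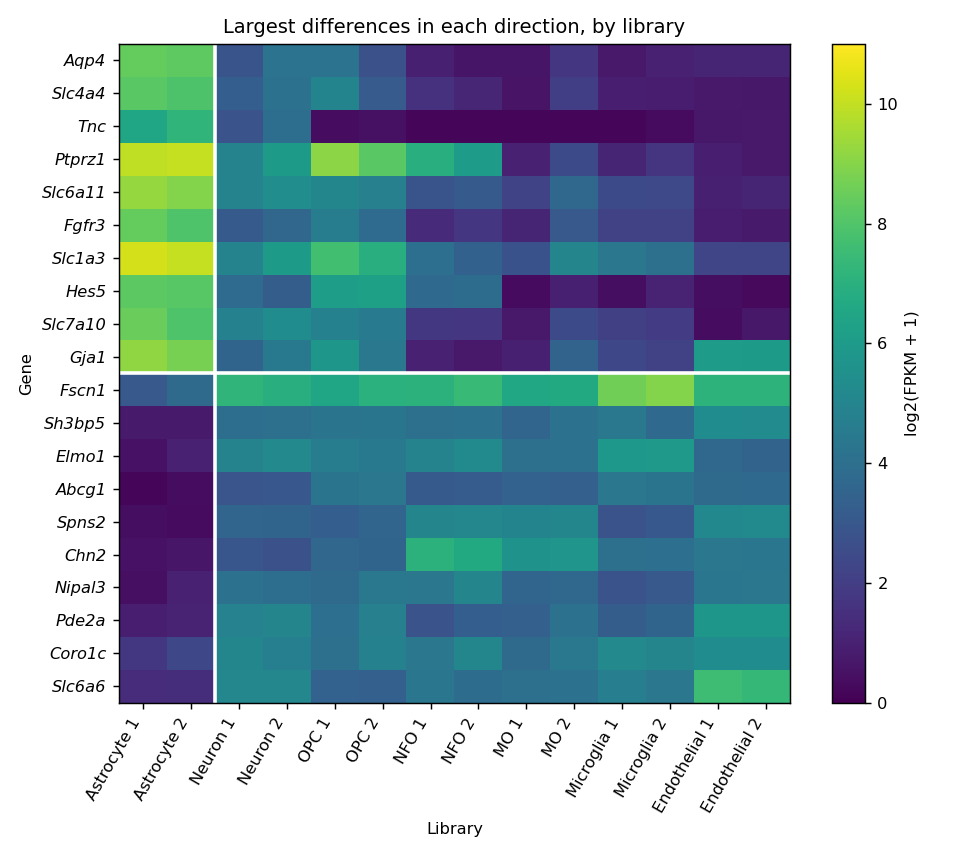
Level of 20 genes in every purified library, as log2(FPKM + 1) by colour, astrocytes left of the vertical white line. Above the horizontal line stand the 10 genes with the largest difference upwards, where the OPC columns are the brightest outside astrocytes for Ptprz1 and Slc1a3, and below it the 10 genes lower than in each other type with the largest distance to the nearest type, dark in astrocytes and filled in all 12 others.

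Genes of transmitter uptake were among the most abundant RNAs of these libraries. Of 13 listed genes, 10 were higher in astrocytes and 1 was lower, with a median difference of 3.95. Slc1a3, a glutamate transporter, stood at 1246 and 1036 FPKM in astrocytes, against 3.85 to 205.6 FPKM (median 17.5) in the others, and the highest other library was OPC. Slc1a2, the main glutamate transporter of the adult forebrain, stood at 922 and 541 FPKM in astrocytes and at 1.45 to 249.8 FPKM in the others, again highest in OPC. The GABA transporter gene Slc6a11 reached 612 and 503 FPKM in astrocytes, against 0.932 to 41.4 FPKM elsewhere, a log2 difference of 5.86 (SE 0.25, adjusted p = 1.74e-10, limma). Slc7a10, a carrier of small neutral amino acids such as serine and glycine, followed the same pattern at 353 and 254 FPKM in astrocytes, against 0.303 to 40.1 FPKM elsewhere. Slc1a3, Slc1a2, Slc6a11 and Slc7a10 were all higher than in each other type.

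Glul, which makes glutamine from glutamate, was higher than the mean of the other types but not than in each of them. Its level was 786 and 686 FPKM in astrocytes, and microglia held the highest other library at 1762 FPKM. Glud1, which oxidises glutamate, stood at 296 and 283 FPKM in astrocytes, above all 12 others (19.2 to 80.0 FPKM). The listed gene that was lower is Slc38a1, a glutamine carrier of neurons, at 0.870 and 2.68 FPKM in astrocytes and at up to 24.1 FPKM in neurons. Without astrocyte replicate 1 that gene was no longer called.

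For water, ions and gap junctions, 18 of 21 listed genes were higher and 2 lower, with a median of 3.48. Slc4a4, a sodium bicarbonate cotransporter, stood at 287 and 245 FPKM in astrocytes, against 0.505 to 30.5 FPKM in the others. Gja1, the connexin of astrocyte gap junctions, stood at 572 and 425 FPKM in astrocytes, against 0.690 to 65.6 FPKM elsewhere, highest in endothelial cells. Mlc1, a membrane protein of perivascular endfeet, stood at 391 and 367 FPKM in astrocytes, against 1.37 to 48.0 FPKM elsewhere. The log2 differences of these genes were 6.05, 5.53 and 5.31, and each was higher than in each type. Kcnj10, the potassium channel of glia, was higher at 209 and 160 FPKM in astrocytes but stood at up to 116.5 FPKM in NFO and was not higher than in each type. The 2 genes that were lower are Slc12a2, a chloride cotransporter highest in NFO, and Kcnk1, a potassium leak channel highest in OPC, which was not called with the common sum (-0.96).

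The dystrophin complex anchors Aqp4 at endfeet. Of its 10 listed genes 7 were higher and 0 lower, with a median of 1.55. Dtna, the dystrobrevin of glia, stood at 81.4 and 71.8 FPKM in astrocytes, against 0.215 to 13.9 FPKM in the others, and was the only listed member higher than in each type. Dag1, the dystroglycan core, stood at 126 and 108 FPKM in astrocytes, against 6.22 to 64.3 FPKM. Agrn was also higher than the mean, although it reached 189 FPKM in endothelial cells.

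**Figure D3:**
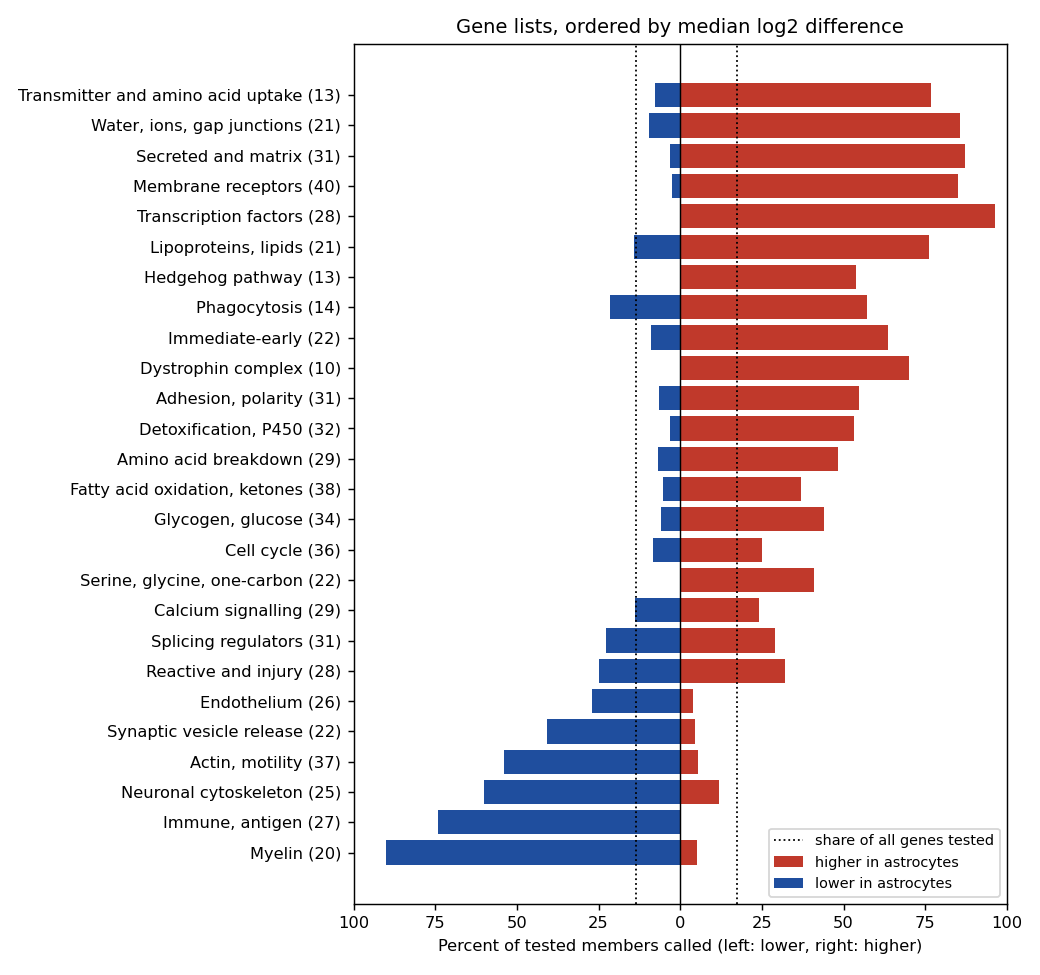
Percentage of the tested members of 26 gene lists that were higher (right, red) or lower (left, blue) in astrocytes, with the number tested in brackets and dotted lines at the percentages over all 14011 genes. Lists run from the highest median log2 difference at the top (uptake, 3.95) to the lowest at the bottom (myelin, -3.74).

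Of the genes for secreted and matrix proteins 27 of 31 were higher and 1 was lower, with a median of 3.35. Tnc, the matrix glycoprotein tenascin C, stood at 90.9 and 144 FPKM in astrocytes, against 0.1 to 14.8 FPKM (median 0.270) in the others. The highest other library was of neurons, and the log2 difference was 6.002 (SE 0.24, adjusted p = 8.07e-11, limma). Ncan, a chondroitin sulfate proteoglycan of perineuronal matrix, reached 232 and 322 FPKM in astrocytes, against 0.778 to 49.9 FPKM in the others. Itih3, a hyaluronan-binding protein, and Igfbp2, which binds insulin-like growth factors, differed by 5.05 and 4.96, and all of these genes were higher than in each type. Of the factors that promote synapse formation, Gpc4, Gpc6, Chrdl1 and Thbs1 were higher than in each type, and Sparcl1 was higher than the mean at 1985 and 1542 FPKM in astrocytes with up to 655 FPKM in endothelial cells. Sparc, which counteracts Sparcl1, was the member that was lower: 97.8 and 124 FPKM in astrocytes, against up to 3549 FPKM in endothelial cells. That call was lost with the common sum and without astrocyte replicate 1.

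Growth factors of the same list had mostly distinct ranges. Vegfa, the vascular growth factor, stood at 346 and 325 FPKM in astrocytes, against 0.600 to 115.5 FPKM in the others. Hgf was at 27.5 and 29.3 FPKM in astrocytes and at 0.1 to 1.22 FPKM elsewhere, with a median at the floor of 0.1 FPKM. Cntf, a cytokine known from astrocytes, was not called: it stood at 1.99 and 2.21 FPKM in astrocytes, against 0.185 to 1.92 FPKM, a log2 difference of 0.75.

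Receptors and other signalling membrane proteins were the longest list, with 34 of 40 higher, 1 lower and a median of 3.10. Fgfr3, a receptor for fibroblast growth factors, stood at 334 and 251 FPKM in astrocytes, against 0.731 to 23.9 FPKM in the others, a log2 difference of 5.81 (SE 0.34, adjusted p = 3.23e-09, limma). Its relatives Fgfr1 and Fgfr2 were also higher than in each type, by 3.54 and 3.53 from the mean. Grm3, the metabotropic glutamate receptor of mature astrocytes, stood at 179 and 137 FPKM in astrocytes, against 0.475 to 11.6 FPKM in the others. Grm5, the form known from young astrocytes, stood at 29.8 and 42.5 FPKM in astrocytes, against 0.1 to 16.9 FPKM. F3, the initiator of blood coagulation known as tissue factor, reached 193 and 135 FPKM in astrocytes, against 0.417 to 37.7 FPKM.

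Several receptors were shared with OPC or neurons. Ptprz1, a receptor phosphatase, stood at 986 and 1058 FPKM in astrocytes, above all 12 others, but OPC reached 547 FPKM and the difference from OPC did not pass the test for each type (log2 1.36, adjusted p = 0.071, limma). Gria2, an AMPA receptor subunit, stood at 180 and 155 FPKM in astrocytes and at up to 163 FPKM in OPC, so the groups overlapped. Egfr, Bmpr1b and Celsr1 had no such partner and were higher than in each type. Adrb1, a beta-adrenergic receptor, was higher than the mean at 11.4 and 13.5 FPKM in astrocytes, against 0.1 to 8.63 FPKM.

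Lipid and lipoprotein genes gave 16 higher and 3 lower of 21, with a median of 2.57. Apoe, the main apolipoprotein of the brain, stood at 3232 and 2695 FPKM in astrocytes, against 83.4 to 2501 FPKM in the others, the highest in microglia. Its groups did not overlap but it was not higher than in each type. Dio2, the deiodinase that makes active thyroid hormone, stood at 136 and 87.1 FPKM in astrocytes, against 0.264 to 22.4 FPKM, and Elovl2, which elongates polyunsaturated fatty acids, at 51.9 and 40.2 FPKM in astrocytes, against 0.163 to 7.91 FPKM. Both were higher than in each type, by 5.16 and 4.35 from the mean. The cholesterol exporters went opposite ways. Abca1 stood at 66.7 and 67.7 FPKM in astrocytes, against 0.105 to 50.2 FPKM, and Abcg1 at 0.138 and 0.297 FPKM in astrocytes, against 6.57 to 19.8 FPKM in the others. Abcg1 was lower than in each type (log2 difference -3.37, SE 0.11, adjusted p = 2.39e-11, limma).

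Genes that activate and bind fatty acids split in the same manner. Fabp7, a fatty acid binding protein of radial glia and astrocytes, stood at 1237 and 1977 FPKM in astrocytes, against 4.93 to 293.8 FPKM in the others. Acsbg1 and Acsl6, which activate long-chain fatty acids, and Slc27a1, which imports them, were higher than in each type, by 4.60, 4.29 and 4.01 from the mean. Acsl1, another activating enzyme, was lower than in each type: 0.867 and 0.771 FPKM in astrocytes, against 3.69 to 46.3 FPKM. Of the 38 listed genes of fatty acid oxidation and ketone bodies, 14 were higher and 2 lower (median 0.60), the other being Acsl5. Hadha and Hadhb, the trifunctional enzyme of beta-oxidation, were not called, at 0.07 and 0.31.

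In serine, glycine and sulfur metabolism 9 of 22 genes were higher and 0 lower, with a median of 0.27. Cbs, which joins homocysteine and serine, stood at 94.6 and 86.3 FPKM in astrocytes, against 0.164 to 6.14 FPKM in the others, and Cth, the next enzyme towards cysteine, at 28.2 and 21.1 FPKM in astrocytes, against 0.1 to 1.91 FPKM. Gldc, the decarboxylase of the glycine cleavage system, stood at 26.6 and 24.9 FPKM in astrocytes, against 0.1 to 12.5 FPKM. These 3 genes were higher than in each type, by 5.10, 3.99 and 3.32 from the mean. Phgdh, the enzyme that opens serine synthesis, was higher than the mean at 33.6 and 35.9 FPKM in astrocytes but reached 47.3 FPKM in MO.

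Glycogen and glucose genes gave 15 higher and 2 lower of 34, with a median of 0.53, and 1 lower without astrocyte replicate 1. Ppp1r3c, which targets a phosphatase to glycogen, stood at 97.4 and 112 FPKM in astrocytes, against 0.209 to 5.49 FPKM in the others, a log2 difference of 5.48 (SE 0.23, adjusted p = 1.61e-10, limma). Pygb, the glycogen phosphorylase of brain, was at 110.4 and 110.0 FPKM in astrocytes, against 6.08 to 35.3 FPKM, and Pdk4, which holds back pyruvate oxidation, at 63.1 and 64.3 FPKM in astrocytes, against 0.151 to 15.8 FPKM. Those genes and Aldoc were higher than in each type, while Gys1, the synthase, was higher than the mean by 1.87. General glycolytic genes were not: Pkm2 and Ldha had differences of -0.98 and -0.62 and were not called, and Eno2, the enolase of neurons, was lower, with a difference of -1.66. Of 29 genes of amino acid breakdown, 14 were higher and 2 lower (median 0.83), with Prodh, which oxidises proline, the largest at 2.51 and Bcat1, an aminotransferase of branched chains, the lowest at -2.32. With length-centred values 11 of these were higher, and with the common sum 21.

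Detoxification genes had 17 of 32 higher and 1 lower, with a median of 1.21, and 2 lower when either astrocyte replicate was left out. Cyp4f15, a cytochrome P450, stood at 49.6 and 31.5 FPKM in astrocytes, against 0.1 to 5.64 FPKM in the others, and Ephx2, which hydrolyses epoxides of fatty acids, at 29.1 and 19.3 FPKM in astrocytes, against 0.1 to 3.38 FPKM. Both were higher than in each type. Mgst3, a microsomal glutathione transferase, was lower than in each type at 4.09 and 3.58 FPKM in astrocytes, against 8.88 to 45.9 FPKM. P450 genes include near-identical relatives among which the authors' counting could split reads.

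Of the listed transcription factors 27 of 28 were higher and 0 lower, with a median of 2.93. The members were chosen with earlier results of these data known, so this share is no test of such factors. Sox9, a factor of glial fate, stood at 82.5 and 103 FPKM in astrocytes, against 0.150 to 8.38 FPKM in the others, a log2 difference of 4.94 (SE 0.14, adjusted p = 7.55e-12, limma). Id4 and Id3, inhibitors of neurogenic factors, and Etv4, a target of growth factor receptors, differed by 4.03, 3.81 and 3.97 from the mean. Etv4 was shared with OPC, at 79.9 and 80.5 FPKM in astrocytes and up to 65.3 FPKM in OPC. It differed from OPC by 0.59 and was not higher than in each type. Otx1, Pax6, Rfx4, Dbx2 and Rorb, known from the patterning of the forebrain and its progenitors, were each higher than in each type, and Otx1 stood at 19.5 and 20.1 FPKM in astrocytes, against 0.1 to 1.63 FPKM. Nfia, Nfib and Nfix, the Nfi factors of gliogenesis, were higher than the mean by 1.67, 2.08 and 1.19 but not than in each type, and neurons held their highest other libraries. With length-centred values Nfia was not called (0.87). Stat3, the factor of cytokine signalling, was the member not called, at 36.4 and 52.8 FPKM in astrocytes, against 14.2 to 51.1 FPKM, a log2 difference of 0.85. It was called higher without astrocyte replicate 1 (1.11) and with the common sum (1.21).

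Hes5, a repressor switched on by Notch, is not in that list but was among the 10 genes with the largest difference. It stood at 297 and 281 FPKM in astrocytes, against 0.231 to 74.5 FPKM (median 4.71) in the others. OPC, at a mean of 72.1 FPKM, were the nearest type, and neurons and NFO followed at 10.8 and 13.4 FPKM. The difference was 5.63 from the mean of the other types (SE 0.20, adjusted p = 3.44e-11, limma) and 1.99 from OPC. The promoter is shown because the Notch effector RBPJ is known to bind there. It is RefSeq's 300 bases around the start site on build GRCm38.p6, chr4:154960673-154960972, plus strand, with the letters GTGGGAA in capitals wherever they occur on either strand:
Hes5: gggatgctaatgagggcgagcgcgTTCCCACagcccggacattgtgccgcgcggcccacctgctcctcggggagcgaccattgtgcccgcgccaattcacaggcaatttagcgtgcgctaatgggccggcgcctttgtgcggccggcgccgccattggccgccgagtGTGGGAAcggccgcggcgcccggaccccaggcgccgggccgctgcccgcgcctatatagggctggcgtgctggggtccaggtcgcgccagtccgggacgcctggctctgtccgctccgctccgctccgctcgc
Relative to the start site the match on the minus strand lies at -226 and that on the plus strand at -83. The motif occurs, on either strand, in the same window of 1958 of 27025 genes in the RefSeq table (7.25%). A match describes letters and is not evidence of a site in these cells.

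The hedgehog pathway carries a signal from secreted ligands through Ptch1 and Smo to the Gli factors. Of 13 tested genes, 7 were higher and 0 lower, with a median of 2.16. The ligand genes Shh and Dhh were listed at the floor of 0.1 FPKM in both astrocyte libraries. Gli1, a factor and target of the pathway, stood at 14.5 and 17.7 FPKM in astrocytes, against 0.1 to 0.776 FPKM in the others. Gli3 stood at 16.0 and 14.7 FPKM in astrocytes, against 0.1 to 0.733 FPKM, and Gli2 at 14.6 and 12.6 FPKM, against 0.1 to 0.573 FPKM. Their log2 differences were 3.82, 3.74 and 3.61, in all cases with most other libraries near the floor. The receptor Ptch1 stood at 60.7 and 67.2 FPKM in astrocytes, against 0.850 to 11.3 FPKM, and Smo at 19.4 and 20.3 FPKM in astrocytes, against 0.366 to 9.54 FPKM. These 5 genes and the coreceptor Boc were higher than in each type, and Gas1, another coreceptor, was higher than the mean.

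Of 14 genes that recognise and engulf debris 8 were higher and 3 lower, with a median of 1.71. The receptors Megf10 and Axl and the bridging protein Mfge8 were higher than in each type. Mfge8 stood at 733 and 712 FPKM in astrocytes, against 13.9 to 120.0 FPKM in the others, a log2 difference of 4.25 (SE 0.25, adjusted p = 2.93e-09, limma). Mertk was higher than the mean at 42.2 and 24.9 FPKM in astrocytes, with microglia at up to 29.9 FPKM. Elmo1, which passes the signal of such receptors to Rac, was lower than in each type: 0.451 and 1.01 FPKM in astrocytes, against 10.5 to 60.7 FPKM. Rac1 itself was lower at 75.9 and 91.7 FPKM in astrocytes, against 103 to 311 FPKM, by a log2 difference of -1.01 that lies at the threshold and was no longer called with the common sum (-0.64) or without astrocyte replicate 1 (-0.87). Gas6, a ligand of Axl and Mertk, was the other gene that was lower, with a difference of -1.60. Elmo2, a relative of Elmo1, was not called, at 0.99, but was without astrocyte replicate 2 (1.44).

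Adhesion genes gave 17 higher and 2 lower of 31 (median 1.28), and 12 higher with length-centred values. Itga7 and Ezr, a laminin receptor and a linker of membrane and actin found in fine astrocyte processes, were higher than in each type, with Ezr at 113 and 121 FPKM in astrocytes, against 0.610 to 20.2 FPKM in the others. Cntn1, an adhesion protein of axons and oligodendrocyte precursors, was lower at 1.35 and 1.72 FPKM in astrocytes and at up to 337 FPKM in OPC.

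Calcium signalling genes were close to the background, with 7 of 29 higher and 4 lower and a median of 0.07. With length-centred values 7 were lower. Plcd4, a phospholipase, and Rgs20, a regulator of G proteins, were higher than in each type, by 4.57 and 4.41. Orai2, a subunit of the store-operated calcium channel, was lower than in each type at 0.174 and 0.600 FPKM in astrocytes, against 1.64 to 41.7 FPKM, whereas Orai1 and Orai3 were not called. S100b, often used as an astrocyte marker, was not called: 41.9 and 20.2 FPKM in astrocytes, against 0.660 to 445.8 FPKM, the highest in MO.

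Immediate-early genes, which respond within minutes to stimuli and to handling of cells, were high in both astrocyte libraries. Of 22 listed genes 14 were higher and 2 lower, with a median of 1.58. Fos stood at 3404 and 3588 FPKM in astrocytes, against 69.0 to 1346 FPKM in the others. Nr4a1 stood at 692 and 1025 FPKM in astrocytes, against 3.31 to 397.4 FPKM. Both were higher than in each type, by 3.52 and 3.62 from the mean (adjusted p = 5.49e-09 and 9.81e-10, limma). No other member was higher than in each type, and microglia had the highest other library for most, such as Egr1 at 317 and 516 FPKM in astrocytes and up to 1204 FPKM in microglia. The heat-shock genes Hspa1a and Hspa1b were lower, at 13.9 and 13.7 FPKM and at 12.1 and 9.54 FPKM in astrocytes, with up to 1042 and 891 FPKM in microglia. These paralogs are near-identical, so their split is uncertain. The labels do not say how cells were handled, and its part in these levels was not tested.

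Reactive and injury genes did not move together, with 9 of 28 higher, 7 lower and a median of -0.21. Ptx3, a pattern recognition protein, stood at 11.6 and 30.6 FPKM in astrocytes, against 0.1 to 2.08 FPKM in the others, and Cd44, a hyaluronan receptor, at 15.2 and 16.9 FPKM in astrocytes, against 0.1 to 2.45 FPKM. Both were higher than in each type. Lcn2 and C3, known from inflamed astrocytes, were listed at the floor in both astrocyte libraries. H2-D1, a class I antigen gene, was lower at 1.79 and 8.01 FPKM in astrocytes, with up to 463 FPKM in endothelial cells.

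In the cell cycle list 9 of 36 genes were higher and 3 lower (17.5% and 13.6% over all genes tested), with a median of 0.40. Without astrocyte replicate 2 only 5 were higher. Ccnd2, a cyclin of early cycle, stood at 55.5 and 73.8 FPKM in astrocytes, against 0.256 to 16.95 FPKM in the others, and Rb1, which restrains entry to it, at 48.6 and 41.0 FPKM in astrocytes, against 1.496 to 17.5 FPKM. Both were higher than in each type. Cdkn1c, a cyclin-dependent kinase inhibitor, was lower than in each type at 0.604 and 0.371 FPKM in astrocytes, against 3.48 to 41.8 FPKM. Proliferation genes were present: Mki67 stood at 3.68 and 5.65 FPKM and Top2a at 5.05 and 10.3 FPKM in astrocytes, with the highest other libraries, of OPC, at 7.72 and 13.2 FPKM. With length-centred values Mki67 was not called, at 0.72. The 3 markers of dividing radial glia (Nes, Top2a and Mki67) summed to 16.4 and 30.8 FPKM in astrocytes, against 0.3 to 54.3 FPKM in the others, with none at the floor in astrocytes, and the part of such cells in this list was not tested.

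Genes of mural and ependymal cells were examined as well, since the cortex holds both. Of the 4 mural markers Pdgfrb was higher at 28.2 and 20.7 FPKM in astrocytes, against 0.1 to 16.8 FPKM in the others, whereas Rgs5, Acta2 and Kcnj8 were not called. The mural list summed to 38.6 and 30.9 FPKM in astrocytes, with none of its markers at the floor there. It summed to 218.8 and 255.8 FPKM in endothelial cells and to 0.432 to 15.6 FPKM in the other purified libraries, all below astrocytes. Of the 3 ependymal markers Foxj1, the factor of motile cilia, was higher at 1.62 and 8.99 FPKM in astrocytes, against 0.1 to 4.36 FPKM. That call was lost without astrocyte replicate 2, at a log2 difference of 0.22. The ependymal list summed to 1.94 and 9.93 FPKM in astrocytes, against 0.3 to 4.56 FPKM, with Ccdc153 at the floor in astrocyte replicate 1. What such cells contribute to the astrocyte libraries was not tested.

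For 718 genes the astrocyte level was above the mean of the other types while another type was higher still. The 5 with the largest difference were Slco1c1, Dkk3, Cspg5, Angptl4 and Gpr37l1. Slco1c1, a thyroid hormone carrier, stood at 498 and 318 FPKM in astrocytes and at a mean of 1267 ± 13.3 FPKM (SD, n = 2) in endothelial cells, with the other types at means of 0.307 to 14.4 FPKM. Angptl4, a secreted inhibitor of lipoprotein lipase, was likewise shared with endothelial cells, at 51.8 ± 3.17 FPKM in astrocytes and 148 ± 6.57 FPKM in endothelial cells (SD, n = 2 each). Dkk3, a secreted glycoprotein, was shared with neurons, and Cspg5, a membrane proteoglycan, with OPC, at 297 ± 24.6 FPKM in astrocytes and 548 ± 159 FPKM in OPC. Gpr37l1, a receptor of glia, had nearly equal means of 368 ± 150 FPKM in astrocytes and 390 ± 87.5 FPKM in OPC.

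Among the 1908 genes that were lower in astrocytes, microglia were the highest of the other types for 27.3%, against 16.9% of all genes tested, and MO for 14.4%, against 5.4%. Endothelial cells were the highest for 21.3%, against 22.7%, and neurons for 19.3%, against 24%, so these were no more frequent than over all genes. OPC were the highest for 9.0%, against 23.2%, and NFO for 8.7%, against 7.7%. The astrocyte mean was under 1 FPKM for 869 of the 1908 genes. Both astrocyte libraries lay below all 12 others for 655 (34.33%), against 7.06% of all genes tested. Neuron markers stood at 1.16% to 12.5% of their own level in the other libraries that are not neurons, highest in OPC, and microglia markers at 0.029% to 9.75% in those that are not microglia, again highest in OPC. In the astrocyte libraries the neuron markers stood at 0.661% and 1.61% and the microglia markers at 0.0722% and 0.0527%, within or below those ranges, and the part of such RNA in the differences below was not tested.

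Myelin genes were the lowest list, with 18 of 20 lower, 1 higher and a median of -3.74. Mbp, which compacts myelin, stood at 2.45 and 0.951 FPKM in astrocytes and had a median of 229.5 FPKM in the other libraries, a log2 difference of -7.14 (SE 0.25, adjusted p = 3.59e-11, limma). Trf, the iron carrier transferrin, stood at 0.950 and 0.578 FPKM in astrocytes, with a median of 245.1 FPKM elsewhere. Both overlapped with the lowest other libraries, which were endothelial cells for Mbp and neurons for Trf. Car2, a carbonic anhydrase of oligodendrocytes and astrocytes, was the member that was higher, at 159.5 and 135.6 FPKM in astrocytes and up to 367.6 FPKM in MO. Among the 10 genes lowest in astrocytes over all genes with no overlap, Pllp, Apod, Cldn11, Lims2 and Chn2 were also highest in NFO or MO. Of the same genes Pcp4 and Eef1a2 were highest in neurons.

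Immune genes followed, with 20 of 27 lower, 0 higher and a median of -2.02, all highest in microglia. Ctss, a lysosomal protease of microglia, stood at 1.23 and 0.793 FPKM in astrocytes, with a median of 13.4 and a highest library of 1758 FPKM. Of the neuronal cytoskeleton genes 15 of 25 were lower and 3 higher (median -1.25), and of the genes of synaptic vesicle release 9 of 22 were lower and 1 higher (median -0.67). Basp1, a membrane protein of growth cones, stood at 1.35 and 3.38 FPKM in astrocytes, with a median of 65.6 FPKM elsewhere, whereas Mtap2, the dendritic microtubule protein, was higher at 60.8 and 66.8 FPKM in astrocytes, with up to 114.2 FPKM in neurons. Of the endothelial genes 7 of 26 were lower and 1 higher (median -0.47), beside 13.6% and 17.5% over all genes tested. Endothelial cells were the highest other type for all 26.

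Regulators of splicing split both ways, with 9 of 31 higher, 7 lower (17.5% and 13.6% over all genes tested) and a median of -0.01. The RNA-binding proteins Msi1, Celf2 and Msi2 were higher by 2.71, 2.24 and 2.21 from the mean, but none was higher than in each type. Neurons were the nearest type for all of them. The neuron mean of Msi2 was 72.7 FPKM, above 57.6 FPKM in astrocytes, Celf2 overlapped with neurons, and Msi1 differed from neurons by 0.49. Elavl3, a neuronal one, had a difference of -2.26 and was also high in NFO and MO, at means of 69.5 and 53.6 FPKM. Red blood cell markers summed to 4.94 and 7.15 FPKM in astrocytes, against 2.05 to 2082 FPKM in the others, and fibroblast markers to 1.68 and 0.952 FPKM, against 0.4 to 103.7 FPKM.

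Both astrocyte libraries lay below all 12 others for each of the 109 genes that were lower than in each other type. Over all genes tested that held for 7.06%, and the rule that chose the 109 largely fixes it. Of the 109, 20 had an astrocyte mean under 1 FPKM. With length-centred values 100 genes were lower than in each type, of which 52 were among the 109. The median level of the 109 was 11.1 FPKM in astrocytes and 46.9 FPKM in the mean of the others. The nearest type was neurons for 32, OPC for 22, NFO for 17, microglia for 16, MO for 12 and endothelial cells for 10. The number fell to 20 without astrocyte replicate 1, 62 without astrocyte replicate 2, 66 without neuron replicate 2 and 36 with the common sum.

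The 10 of them farthest from the nearest type were Fscn1, Sh3bp5, Elmo1, Abcg1, Spns2, Chn2, Nipal3, Pde2a, Coro1c and Slc6a6. Fscn1, the actin bundler fascin, stood at 7.40 and 13.0 FPKM in astrocytes, against 90.4 to 490.5 FPKM (median 135) in the others. Its log2 difference was -3.83 from the mean (SE 0.19, adjusted p = 5.89e-10, limma) and -3.17 from MO, the nearest type. Slc6a6, the taurine transporter, stood at 1.60 and 1.69 FPKM in astrocytes, against 9.51 to 189.3 FPKM, and Spns2, an exporter of sphingosine 1-phosphate, at 0.334 and 0.237 FPKM, against 5.96 to 36.4 FPKM. Chn2, a Rac inhibitor, stood at 0.445 and 0.564 FPKM in astrocytes, against 5.63 to 134.5 FPKM, and Sh3bp5, a binding partner of a tyrosine kinase, at 0.733 and 0.752 FPKM, against 11.2 to 40.3 FPKM. Pde2a, a phosphodiesterase stimulated by cyclic GMP, stood at 0.911 and 1.05 FPKM in astrocytes, against 5.95 to 56.3 FPKM. All 10 were lower than in each type under all 26 alternatives, except Coro1c, which was lost without astrocyte replicate 1.

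Fscn1, Elmo1, Chn2 and Coro1c act on the actin cytoskeleton, and the list of actin and motility genes had 20 of 37 members lower and 2 higher, with a median of -1.08. Tmsb4x, the abundant thymosin that binds actin monomers, stood at 143 and 237 FPKM in astrocytes, against 700.9 to 8098 FPKM in the others, and was lower than in each type. Coro1a and Coro1c, coronins that regulate branched actin, were lower than in each type too. Cfl1, which severs filaments, stood at 126 and 161 FPKM in astrocytes, against 268.1 to 509.4 FPKM. The Arp2/3 subunits Arpc1b, Arpc2, Arpc3 and Arpc5 and the RhoA gene Rhoa were lower than the mean, with log2 differences of -2.93, -1.07, -1.76, -1.25 and -1.06. Arpc1b was not lower than in each type, at 2.35 and 4.11 FPKM in astrocytes, beside means of 1.47 FPKM in neurons and 8.64 FPKM in OPC. With the common sum Arpc2, Arpc5 and Rhoa were not called, and neither was Rhoa without astrocyte replicate 1 or Arpc2 with length-centred values. Vcl, the focal adhesion protein vinculin, was higher at 49.7 and 39.0 FPKM in astrocytes, against 1.18 to 36.7 FPKM, and so was the myosin Myo6. Actb and Actg1, the actins themselves, were not called, at -0.38 and -0.21. With the common sum 16 of the list were lower, and with length-centred values 23.

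Families of housekeeping genes with short transcripts were also low in astrocytes. They were chosen after their values were seen. Of 82 ribosomal protein genes 57 were lower, 0 higher and 18 lower than in each type, with a median of -1.57. The astrocyte mean was the lowest of the 7 types for 59 of them, against 11.4% of all genes tested. Rplp0 stood at 21.7 and 26.4 FPKM in astrocytes, against 48.2 to 363.9 FPKM (median 101.9) in the others. The astrocyte libraries were the lowest and endothelial cells and microglia the highest, with family medians of 1.60 and 1.14 relative to the mean of the other types. The count of lower genes was 16 with a log2 threshold of 2 and 47 to 65 under the other alternatives. The count lower than in each type was 0 with that threshold, 0 without astrocyte replicate 1, 6 without astrocyte replicate 2 and 7 with the common sum. Ribosomal protein genes have near-identical pseudogene copies, so the authors' counting could split their reads.

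Subunits of the energy and protein turnover machinery showed smaller shifts of the same sign. Of mitochondrial complex I 15 of 36 subunit genes were lower and 0 higher (median -0.90), of cytochrome c oxidase 6 of 16 (median -0.96), of ATP synthase 8 of 15 (median -1.01), of the vacuolar ATPase 8 of 16 (median -1.03) and of the proteasome 13 of 38 (median -0.70). These counts depended on scaling: with the common sum they were 3, 4, 1, 3 and 5, and with length-centred values 1, 3, 1, 7 and 8. Over all genes tested 13.6% were lower and 0.778% lower than in each type. Of 21 genes of clathrin and its adaptors 5 were lower, all of them than in each type, and 1 was higher (median -0.32, with MO lower still at -0.71). With the common sum 5 were lower and 1 lower than in each type, and with length-centred values 9 and 5. Clta, a clathrin light chain, stood at 32.7 and 35.9 FPKM in astrocytes, against 67.1 to 285.8 FPKM in the others, and Ap2s1, a subunit of the endocytic adaptor, at 15.9 and 19.8 FPKM, against 45.5 to 106.3 FPKM. Without astrocyte replicate 1 none of the 5 was lower than in each type, while 5 genes of the family were lower than the mean of the other types.

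Median transcript lengths were 631 to 1709 bases in these families other than clathrin and its adaptors, which had 3373 bases, and the astrocyte difference moved with length over all genes. Transcripts of genes that were higher in astrocytes had a median length of 3701 bases, those of genes that were lower 2418 bases, and those of all tested genes 2965 bases. The median was 1368 bases for the 109 genes lower than in each type and 3488 bases for the 513 higher than in each. Among 896 genes with transcripts under 1000 bases 5.7% were higher and 30.2% lower, whereas among 4353 genes with transcripts over 4000 bases 25.2% were higher and 9.6% lower. The median astrocyte difference was -0.56 in the shortest class and 0.38 in the longest, and neurons (-0.19 and 0.33) and OPC (0.10 and 0.44) were likewise higher in the longest class. Endothelial cells (0.38 and -0.15), microglia (-0.06 and -0.76) and MO (-0.18 and -0.85) were lower in the longest class, and NFO stood at -0.09 and -0.01. The ribosomal family median was -1.57, or -1.14 with length-centred values, in which 47 of 82 were lower. What the association with length rests on was not tested.

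**Figure D4:**
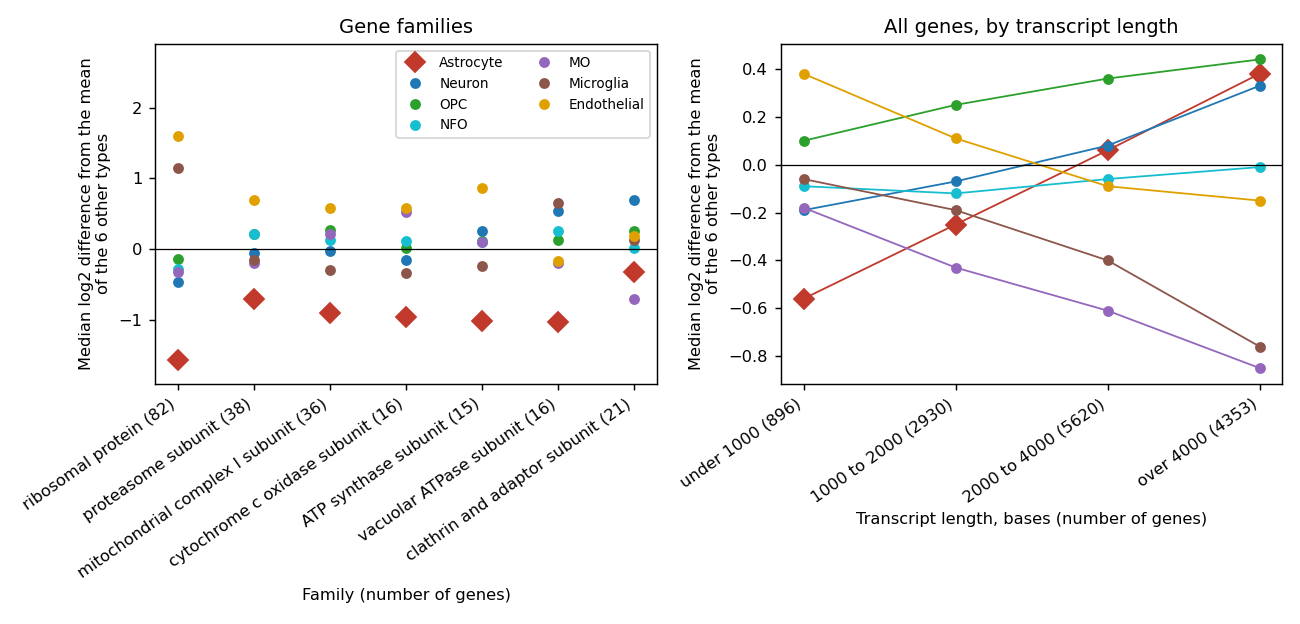
Left, median log2 difference of 7 gene families in each purified type from the mean of the 6 other types, with the number of genes in brackets. Right, the same median over all genes by class of transcript length. Astrocytes (red diamonds) have the lowest median in 6 families, from -1.57 for ribosomal proteins to -0.70 for proteasome subunits, while for clathrin and its adaptors MO (-0.71) lie below astrocytes (-0.32), and in the right panel astrocytes move from -0.56 in the shortest class to 0.38 in the longest.

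Isoform shares were compared where a gene reached 5 FPKM in each of the 14 purified libraries. A share is an isoform's percentage of the summed FPKM of its gene, and a gene was called when limma's test of differential isoform use gave an adjusted p under 0.05 and a share differed by at least 20 percentage points. By that rule 65 of 520 genes differed between astrocytes and the mean of the other types (12.5%). For 44 of the 65 the level of the gene was not called, while 9 were higher and 12 lower. In 29 (44.6%) both astrocyte shares lay outside all 12 others, against 61 of the 520 tested (11.7%).

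Gpx4, a peroxidase that reduces lipid peroxides, had the largest share difference among those 29. The isoform with the longer protein, of 253 residues against 197, took 47.3% and 57.6% of the gene in astrocytes, against 1.0% to 10.4% in the others (adjusted p = 1.16e-10, limma). Its own level was 4.76 and 6.04 FPKM in astrocytes, against 0.16 to 1.98 FPKM. The isoform with the shorter protein stood at 5.30 and 4.46 FPKM in astrocytes, against 9.33 to 43.2 FPKM in the others. For Eif4a2, a helicase of translation initiation, the isoform NM_013506 was listed at the floor in both astrocyte libraries, against 25.5% to 63.3% of the gene elsewhere (adjusted p = 2.51e-13, limma). Pde4b, a phosphodiesterase of cyclic AMP, had 0.79% and 0.85% of its longest isoform in astrocytes, against means of 45.0% in OPC, 68.1% in NFO and 73.1% in MO, while microglia and endothelial cells also had little (adjusted p = 1.38e-13, limma). Abl1, a tyrosine kinase, had 85.6% and 80.7% of the isoform NM_001112703 in astrocytes, against a mean of 44.8% in the others, with neurons higher still at 92.2%. Eif4a1 differed most in points, but its isoforms have the same length, the shares of the astrocyte replicates were 98.9% and 64.8%, and the assignment of reads is uncertain.

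App, the precursor of amyloid beta, and its relative Aplp2 both skip or include a cassette exon that encodes a Kunitz protease inhibitor domain. Shown here are the exons that the isoforms of 695 residues lack beside the App isoform of 770 and the Aplp2 isoform of 751 residues. App isoforms of 752 and 733 residues and an Aplp2 isoform of 707 residues differ in further coding sequence that is not shown. The exons are from the GENCODE M21 annotation on GRCm38, each on the minus strand and written 5' to 3'. App exon 7 is at chr16:85043576-85043743, App exon 8 at chr16:85040251-85040307 and Aplp2 exon 7 at chr9:31167561-31167728:
App exon 7: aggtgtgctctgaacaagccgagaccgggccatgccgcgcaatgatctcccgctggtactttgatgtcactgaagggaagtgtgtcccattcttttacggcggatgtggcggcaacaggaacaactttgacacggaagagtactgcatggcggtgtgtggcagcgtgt
App exon 8: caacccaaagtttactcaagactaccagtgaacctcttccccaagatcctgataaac
Aplp2 exon 7: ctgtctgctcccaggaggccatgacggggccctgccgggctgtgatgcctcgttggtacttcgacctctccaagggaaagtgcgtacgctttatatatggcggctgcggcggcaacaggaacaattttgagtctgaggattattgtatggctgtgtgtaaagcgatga
The Kunitz exons, both of 168 bases or 56 codons, are identical at 114 positions (67.9%). App exon 8 has 57 bases or 19 codons.

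Of the App isoforms 4 of 5 hold exon 7. Together they took 69.45% and 63.09% of App in astrocytes, against 86.97% and 84.07% in microglia, 93.26% and 93.12% in endothelial cells, 34.67% and 33.01% in OPC, 12.05% and 15% in NFO, 3.42% and 3.58% in MO and 1.57% and 1.61% in neurons. Astrocytes lay between endothelial cells and microglia above them and neurons and the oligodendrocyte lineage below, with no overlap with any other type. The isoform of 770 residues, which holds exons 7 and 8, took 45.9% and 45.4% in astrocytes, against a mean of 12.3% in the other types. Endothelial cells were close to astrocytes, at 41.5% and 38.8%, and the remaining types lower. The isoform of 695 residues, which lacks both exons, took 30.6% and 36.9% in astrocytes, against a mean of 61.5% (adjusted p = 1.21e-05 for the gene, limma). Endothelial cells and microglia lay below astrocytes for it, at means of 6.82% and 14.5%, and the remaining types above. In Aplp2 the exon 7 isoform took 62.4% and 63.5% in astrocytes, against 8.64% to 83.3% in the others, of which both microglia libraries were above the astrocytes and the rest below. The shortest Aplp2 isoform, NM_009691, was listed at the floor in both astrocyte libraries and took a mean of 57.5% in MO and 32.0% in NFO (adjusted p = 8.15e-10, limma). OPC lacked that isoform as well.

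**Figure D5:**
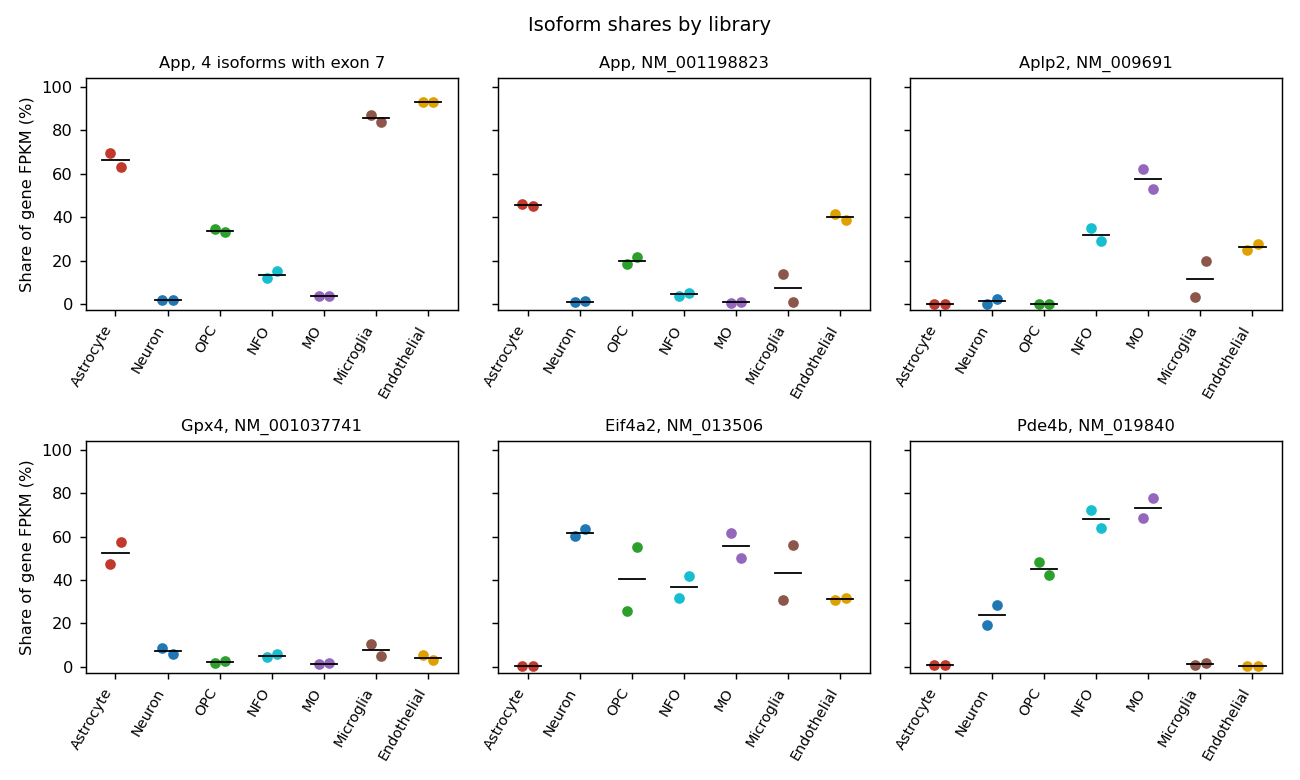
Share of the summed FPKM of a gene, in percent, held by the named isoform or isoforms in each purified library, with points for the 2 libraries of a type and bars for their mean. Astrocyte shares are intermediate for exon 7 of App (69.45% and 63.09%), the highest for NM_001037741 of Gpx4 (47.3% and 57.6%) and at the floor for NM_013506 of Eif4a2.

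Add1, an adducin that caps actin filaments, was the third listed gene called of 9 tested. Its isoform NM_001024458 took 77.9% and 81.3% in astrocytes, against a mean of 52.8% in the others (adjusted p = 0.00131, limma). OPC, microglia and endothelial cells had higher shares still, and MO and NFO had the lowest. Bin1, H2afy, Clta, Rtn4 and Qk were tested and not called.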

How the data were processed

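The authors deposited one table per library of FPKM values per gene and per isoform. Per the submitters' processing notes, the tools were TopHat 1.3.3, Cufflinks 1.3.0, Bowtie 0.12.7 and CASAVA, the mouse build was mm9, and the roles of these tools are not given in the sources used here. No counts or depths were given, so the depth behind a value is unknown, and the low FPKM values did not fall on whole reads. Deposited FPKM summed to 216786 to 218449 in astrocytes and 205621 to 389838 in the other libraries, with 36.6% to 37.7% and 34.1% to 45.1% of genes at the floor of 0.1 FPKM.

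Groups came from the labels. limma 3.58.1 in R 4.3.3 was fitted to log2(FPKM + 1) of all 17 libraries as 8 groups with a trended prior, two-sided for differences from the mean and with the largest one-sided p over the 6 types for the tests against each. Isoform shares used diffSplice with Simes p-values, on isoforms with a mean share of at least 5% in some type. The steps were also run on simulated data in which the other types did not differ from each other. The deposited libraries do differ in that way, so that run does not vouch for the calls given here. A value in a list is a count or a median, with no test of the list.

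The genes to name were those given with the marker list, the 10 with the largest difference in each direction without overlap, the 10 lower than in each type that lay farthest from the nearest, the 5 largest that another type exceeded, up to 4 per list, and the 10 isoform genes with the largest share difference. The members and lists were chosen with earlier results of these data known, and the gene families and the further genes named after their values were seen. Transcript lengths, promoters and exons came from GENCODE M21 and RefSeq on GRCm38, whose coordinates differ from the build of the files and were used only for the sequences shown. A promoter was found for 369 of the 513 genes (71.9%), so promoters were not compared between sets. Alternatives covered the pseudocount, the filter, the scaling, the threshold, the libraries in the fit, each replicate left out and, added after seeing the data, centring by transcript length. A few members counted in the lists are not reported here by name.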

Additional observations from a re-analysis of the deposited data

How the results depend on the processing

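Most counts kept within 1.5 times of those given, over the alternatives run. With a log2 threshold of 2, 765 genes were higher, 414 lower, 159 higher than in each type and 10 lower than in each. The number lower than in each type was the least stable: 55 without the filter, 36 with the common sum, 59 with only the 14 purified libraries in the fit, and 20 to 135 with one replicate left out, lowest without astrocyte replicate 1. Leaving out one replicate gave 2379 to 2535 genes higher, 1818 to 2012 lower, 459 to 550 higher than in each type and 61 to 69 isoform genes. Isoform calls numbered 142 at 10 points, 128 at a gene sum of 2 FPKM and 24 at 10 FPKM. Length-centred values gave 1848, 2160, 487 and 100, sharing 1736, 1611, 411 and 52 genes with those given. Correlations of same-numbered deviations ran from -0.246 to 0.726 over 21 pairs of groups. The 6 above 0.1 were all those among OPC, NFO, microglia and endothelial cells, so same-numbered libraries of these types deviated together, while those with astrocytes ran from -0.099 to 0.033. The labels name nothing the numbers share and most pairs were under 0.1, so the numbers were not taken to pair all libraries. With the replicate block 2448 genes were higher, 1908 lower, 510 higher than in each type and 127 lower than in each, 65 isoform genes were called, and 26 ribosomal protein genes were lower than in each type, against 18 without the block. The causes were not tested. For 232 genes, those the naming rule selects and those added to them, 5970 of 6023 values kept their call, and no called direction was reversed. The unknown depth limits all low values.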

Other observations

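The whole-cortex libraries hold astrocytes among all other cells and entered none of the comparisons. For the 513 genes that astrocytes held above every other type, the whole-cortex level was a median of 28.6% of the astrocyte level, with quartiles of 21.7% and 38.9%.

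Some astrocyte genes differed between the replicates. Ntsr2, a neurotensin receptor, stood at 41.0 FPKM in replicate 2 and 102.7 FPKM in replicate 1, Gjb6 at 30.5 and 75.6 FPKM, Slc1a2 at 541 and 922 FPKM and Gpr37l1 at 262.6 and 474 FPKM. These values were picked after they were seen, and 2 libraries give no test of the difference.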
